A study of Mus musculus with 4 samples.

Results

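Chromatin bound by a Ruvbl2 antibody was mapped in sorted mouse bone marrow cells, and 971 intragenic regions were found in every library. They were selected on the peak lists themselves. Peaks of the 4 libraries on chromosomes 1 to 19 were merged where they overlapped by at least 1 bp, which gave 690059 regions. A merged region was kept when it held a peak of each library, lay inside a protein-coding gene and was over 5 kb from every end of a protein-coding gene. Of all merged regions 4233 held a peak of each library, a share of 0.613%. Of these, 971 were intragenic by the rule, 2374 came within 5 kb of a gene end and 888 lay elsewhere outside genes. Among the 244922 merged regions deep inside genes, the 971 were 0.396%. Presence in the 4 libraries, distance and position therefore define the regions and are no finding.

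The assay was CUT&Tag, in which an antibody tethers a transposase to chromatin so that DNA near the bound protein is cut and sequenced. Haematopoietic stem cells (HSC) were the CD48-CD150+LSK fraction of Nup214fl/+ mice. Leukaemia stem cells (LSC) were sorted as Lin-, Sca-1-, CD34+, CD16/32+ and c-Kit+ from Nup214fl/+ mice whose leukaemia was driven by MLL-AF9. Both groups carried the floxed Nup214 allele, each had 2 libraries from 2000 to 5000 cells, and each library was amplified by 17 to 20 PCR cycles. The labels do not say whether the libraries came from separate animals. The LSC gate is also that of granulocyte-monocyte progenitors, so stage and leukaemia cannot be told apart between the groups. No control library without the Ruvbl2 antibody is named in the labels, which give a Proteintech Ruvbl2 antibody and a goat anti-rabbit secondary.

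Ruvbl2 is an AAA+ ATPase that works in a ring with Ruvbl1. The ring sits in INO80, in SRCAP and in the TIP60/p400 complex, which move or exchange nucleosomes and acetylate histones, and in a co-chaperone called R2TP. Such complexes are best known at promoters, and open chromatin inside genes includes enhancers and internal promoters, from which shorter transcripts of the same gene start.

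Of the 971 regions, 457 (47.1%) had at least 1 base covered by a peak of all 4 libraries. The other regions were chains, in which each peak overlapped a neighbour but no base lay in a peak of all 4. A shared base was present in 57.1% of common regions near gene ends and in 50.7% of those outside genes. The shared stretch had a median of 226 bp over all regions that had one, within regions of 389 to 10162 bp and a median width of 1510 bp. Exactly 4 peaks made up 646 of the regions (66.5%), and the largest number was 17. The strongest summits of the 4 libraries fell within 200 bp of each other in 50 regions (5.15%), and their median spread was 717 bp. Counts are therefore also given for the regions with a shared base.

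A small set of the regions sat on annotated starts of protein-coding transcripts inside the host gene. The starts came from RefSeq (GRCm38.p6, the coordinates of mm10). Of 2053 annotated starts over 5 kb from any coding gene end, 55 (2.68%) lay inside one of the regions, in 50 regions and 49 genes. The 200 bases before 7 of these starts are printed because they show the range of sequence found there, from GC-rich starts to an AT-rich one. They were chosen after their values were seen. Capitals mark the GC box, GGGCGG or its reverse complement CCGCCC, to which Sp1-type factors bind.
Tef, chr15:81811214-81811413, plus strand: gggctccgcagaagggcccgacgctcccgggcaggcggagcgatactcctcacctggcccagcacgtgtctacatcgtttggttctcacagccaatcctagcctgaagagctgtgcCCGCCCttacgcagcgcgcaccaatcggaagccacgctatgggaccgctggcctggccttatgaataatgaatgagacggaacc
Stag1, chr9:100643248-100643447, plus strand: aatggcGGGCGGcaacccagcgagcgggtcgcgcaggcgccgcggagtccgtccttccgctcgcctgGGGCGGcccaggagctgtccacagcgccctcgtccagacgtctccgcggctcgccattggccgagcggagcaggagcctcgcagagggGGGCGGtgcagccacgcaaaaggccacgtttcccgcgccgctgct
Triobp, chr15:78982856-78983055, plus strand: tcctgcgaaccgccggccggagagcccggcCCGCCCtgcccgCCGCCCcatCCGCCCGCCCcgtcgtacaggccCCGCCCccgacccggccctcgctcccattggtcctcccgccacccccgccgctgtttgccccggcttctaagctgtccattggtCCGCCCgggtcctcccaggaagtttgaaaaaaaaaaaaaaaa
Iqgap1, chr7:80803332-80803531, minus strand: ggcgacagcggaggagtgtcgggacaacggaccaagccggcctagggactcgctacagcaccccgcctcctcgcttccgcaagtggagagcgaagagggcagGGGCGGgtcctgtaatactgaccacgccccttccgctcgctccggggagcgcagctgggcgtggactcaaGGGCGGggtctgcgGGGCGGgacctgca
Txnrd1, chr10:82859006-82859205, plus strand: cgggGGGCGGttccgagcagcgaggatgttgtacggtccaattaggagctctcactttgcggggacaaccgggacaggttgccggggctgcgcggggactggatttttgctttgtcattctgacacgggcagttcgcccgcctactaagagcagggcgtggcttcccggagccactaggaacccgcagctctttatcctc
Casp8, chr1:58802302-58802501, plus strand: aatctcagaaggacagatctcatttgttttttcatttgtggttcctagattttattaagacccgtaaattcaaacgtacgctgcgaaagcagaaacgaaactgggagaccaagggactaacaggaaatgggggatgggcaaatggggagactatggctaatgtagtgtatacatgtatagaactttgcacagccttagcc
Srgn, chr10:62507758-62507957, minus strand: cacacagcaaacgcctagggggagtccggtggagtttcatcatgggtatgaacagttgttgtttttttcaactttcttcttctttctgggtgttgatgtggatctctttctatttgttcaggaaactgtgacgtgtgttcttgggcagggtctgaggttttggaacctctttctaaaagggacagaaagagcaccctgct

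The printed sequences differed in base composition. The stretch before the start of Stag1, a cohesin subunit, held 28 CpG and 3 GC boxes at a GC content of 74.0%. The stretch of Triobp, an actin-binding protein, held 22 CpG and 5 GC boxes that do not overlap each other. Before the start of Iqgap1, a scaffold of the cytoskeleton, there were 20 CpG and 3 GC boxes. The stretches of Casp8, the initiator caspase of death receptor signalling, and Srgn, the core protein of granule proteoglycans, held no GC box, with 5 and 3 CpG and a GC content of 42.0% and 45.5%. The Tef stretch, before a start of a PAR bZIP transcription factor, held 1 GC box, a CCAAT box and an E-box. Txnrd1 encodes the cytosolic thioredoxin reductase, and its stretch held 1 GC box and 16 CpG.

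Over all 55 starts inside the regions, the median GC content of the 200 bases was 58.5% and the median number of CpG was 10. All 2053 starts deep inside genes had medians of 53.5% and 4, and starts inside merged regions of fewer than 4 libraries had 54.5% and 4. The GC box (GGGCGG) was present before 41.8% of the 55 starts, 29.8% of all starts deep inside genes and 40.8% of all 21262 coding starts. CCAAT was present before 22 of the 55 starts, and before 27.0% and 31.1% of the other sets. TATAAA was present in 3.64%, 8.09% and 9.38%, the ETS core CCGGAAG in 5.45%, 3.02% and 8.23%, and the E-box CACGTG in 5.45%, 4.14% and 5.81%. Each motif was searched on both strands, and a match describes the letters only. The median number of CpG over all coding starts was 8. The starts inside the regions thus stood near all coding starts in the share with a GC box, and above both sets in the number of CpG.

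The strongest summit of a region fell within 250 bp of an annotated coding start in 28 of 942 regions, which is 2.97%. The 29 regions on chromosome 18 were not used here. The 942 include regions whose host gene has no start in the list, so the share is a partial count. Host strand, taken from the same starts, was known for 746 of the 971 regions. Among merged regions deep inside genes found in 1, 2 and 3 libraries, the share was 0.136%, 0.338% and 0.872%. For starts of non-coding genes the share was 0.151%, 0.207%, 0.252% and 0.531% in 1, 2, 3 and 4 libraries. Regions with a shared base had a coding start near the summit in 20 of 443 (4.51%). The share thus rose with each added library for coding and non-coding starts alike, and for coding starts it was larger where all 4 libraries shared a base.

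**Figure D1:**
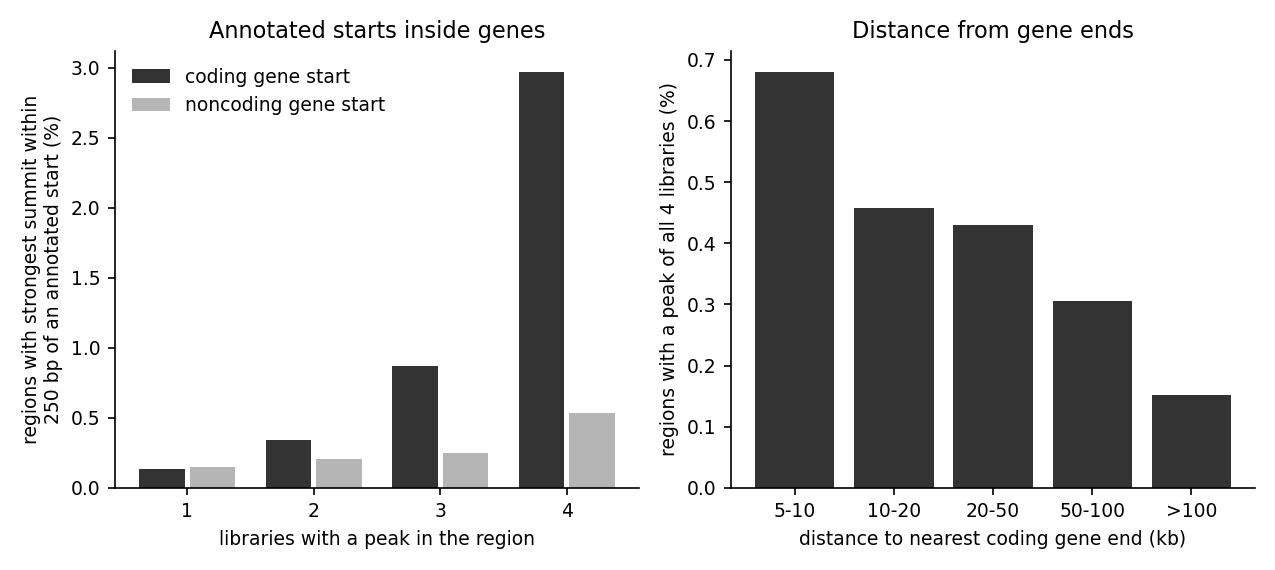
Left, percent of merged regions deep inside genes whose strongest summit lies within 250 bp of a start in the partial list. It is drawn against the number of libraries with a peak, for coding and non-coding gene starts. The coding share is 0.136% for 1 library and 2.97% for 4. Right, percent of merged regions deep inside genes that hold a peak of all 4 libraries, against distance to the nearest coding gene end in kb; it is 0.681% at 5 to 10 kb and 0.151% over 100 kb.

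The values of these start regions differed widely. Fold is the authors' value for the strongest peak of a library in the region, the pileup over the background of that library, with replicate 1 given first throughout. Because the background is the library's own, a higher or lower value between libraries describes these peaks and shows no change in binding. At the Tef start the fold was 58.8 and 92.3 in HSC and 83.3 and 109.9 in LSC. At Stag1 it was 61.8 and 24.7 in HSC and 89.3 and 41.3 in LSC, and at Casp8 47.8 and 32.6 in HSC and 102 and 47.0 in LSC. Tef had high values in all libraries, whereas those of Stag1 and Casp8 were higher in replicate 1 than in replicate 2 of each group.

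At Mga, a MAX-binding repressor, the fold was 46.2 and 21 in HSC and 88.2 and 30.5 in LSC, and the 4 summits lay within 33 bp. At Hk1, hexokinase 1, it was 22.1 and 30.5 in HSC and 19.6 and 64.8 in LSC, and at Triobp 20.0 and 26.8 in HSC and 32.6 and 15.9 in LSC. Iqgap1 had 50.6 and 45.9 in HSC but 4.58 and 23.9 in LSC, with no shared base. Its LSC values were both below its HSC values. At Srgn, also a chain without a shared base, the fold was 12.6 and 18.5 in HSC and 23.4 and 28.8 in LSC, with the strongest summit 12 bp from the start. Both LSC values exceeded both HSC values there. By rank among the common regions the groups overlapped at Srgn, with 3126 and 1629 in HSC and 1932 and 1458 in LSC.

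A different feature marked Tex14, which encodes a protein of germ cell intercellular bridges. It held 6 of the regions, and all 6 overlapped small nuclear RNA genes in the RefSeq table. They covered all 7 such genes inside Tex14, namely Rnu1a1 and Gm22068, Rnu3b1 and Gm23137 together in 1 region, Rnu3b3, Rnu3b4 and Rnu3b2. Rnu1a1 encodes a U1 RNA, which pairs with 5′ splice sites, and the Rnu3b genes encode U3 RNAs, which take part in processing of ribosomal RNA. Tex14 had 59 merged regions deep inside it in all. All 6 had a shared base, of 458 to 1132 bp. With the ends of genes of every type counted as gene ends, which includes those of the small nuclear RNA genes, none of the 6 remained.

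The fold values of the 6 Tex14 regions lay between 31.6 and 137. In the region at chr11:87425329-87428894, with Gm22068, they were 72.2 and 76.4 in HSC and 102 and 72.6 in LSC. In the Rnu1a1 region, chr11:87422020-87424488, they were 40.7 and 31.6 in HSC and 60.6 and 55.3 in LSC. In that of Rnu3b1, chr11:87441662-87446503, they were 106 and 82.7 in HSC and 53.8 and 71.2 in LSC. The groups overlapped at Gm22068, both LSC values were the higher ones at Rnu1a1, and both HSC values were the higher ones at Rnu3b1. By rank among the common regions the groups overlapped at Rnu1a1 too, with 933 and 675 in HSC and 805 and 491 in LSC.

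The Rnu3b3 region, chr11:87448275-87450412, had 70.2 and 57.8 in HSC and 56.9 and 55.3 in LSC. In the Rnu3b4 region, chr11:87461653-87463946, the values were 137 and 56.7 in HSC and 44.8 and 54.4 in LSC, and in the Rnu3b2 region, chr11:87470588-87472723, 49.5 and 46.2 in HSC and 43.6 and 43.8 in LSC. The summits of the 4 libraries lay 0 to 112 bp from Rnu3b4, 0 to 429 bp from Rnu1a1, 68 to 217 bp from Rnu3b1, 88 to 270 bp from Rnu3b3, 107 to 432 bp from Rnu3b2 and 209 to 473 bp from Gm22068. They were 806 to 1438 bp from Gm23137, which shares the region of Rnu3b1. In the Rnu3b3, Rnu3b4 and Rnu3b2 regions, too, both HSC values exceeded both LSC values. The lower HSC value stood little above the higher LSC value in each, while HSC replicate 1 at Rnu3b4, with 137, stood far above. The Rnu3b genes are near-identical copies, and the sources used do not say how reads matching several of them were placed, so the values of the single copies are uncertain.

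Genes classed as small nuclear RNA in the RefSeq table were overlapped by 7 of the 971 regions (0.721%). They were overlapped by 0.0131%, 0.0185% and 0.0374% of the regions deep inside genes found in 1, 2 and 3 libraries. Of 267 such genes deep inside coding genes, 42 lay in a merged region of any kind and 8 in the 971. The region not in Tex14 was in Hhat, a palmitoyl transferase for Hedgehog proteins, and overlapped Gm22265 with summits 615 to 1615 bp from it and no shared base. Thus 6 of the 7 regions came from a single gene cluster. A gene classed as snoRNA, Gm24982, was overlapped in Insc (0.103% of the regions, against 0.0199%, 0.0771% and 0.0934% in 1, 2 and 3 libraries). The Rnu3b genes, whose U3 RNAs take part in processing of ribosomal RNA, are counted under small nuclear RNA and not in this snoRNA share.

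One miRNA gene, Mir7687 at chr8:120538696-120538754, lay in the region of Gse1, a chromatin-associated protein, at chr8:120538142-120539856. Its mature miRNAs are printed to identify it, from RefSeq, with the seed (bases 2 to 8) in capitals.
mmu-miR-7687-5p: aGGCGGGGaaccugaggcgcaggcu
mmu-miR-7687-3p: cCACUCAGucgccccgccaca

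The fold at this Gse1 region was 33.3 and 27.5 in HSC and 14.5 and 50.6 in LSC, and 7 bp were shared by all 4 libraries. The summits lay 194 to 819 bp from the miRNA gene. Long non-coding genes were overlapped by 61 of the 971 regions (6.28%) and by 4.78% of the regions of a single library. The 971 regions had a median width of 1510 bp, against median peak widths of 333 to 462 bp in the libraries. A wider region can overlap a gene more readily. The overlap shares by number of libraries, for small nuclear RNA and snoRNA genes too, were not adjusted for width.

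Over all 971 regions the median fold was 19.7 and 11.4 in HSC, and 18.3 and 15.2 in LSC. The ranges were 4.10 to 1073, 3.56 to 233, 3.48 to 1093 and 3.6 to 357. The fold moved in steps of 0.273, 0.187, 0.183 and 0.212, since 100% of values below a fold of 500 were whole multiples of these within 0.05 of a step. Taking a step as 1 fragment in the pileup, the median strongest peak held 72, 61, 100 and 72, and the weakest 15, 19, 19 and 17. The weakest regions thus rest on few fragments, and whether duplicates were removed is not given in the sources used. The median over all peaks of a library was 13.4, 5.99, 11.3 and 9.11. Of the 971 regions, 674, 786, 676 and 762 stood above it, where the strongest peak of a region is set beside all peaks.

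Common regions near gene ends had medians of 21.6 and 18.5 in HSC and 23.2 and 26.9 in LSC. Those outside genes had 19.1 and 11.7 in HSC and 19.8 and 15.9 in LSC. The intragenic regions were thus below the regions near gene ends in all 4 libraries, with the wider gap in replicate 2 of both groups, and close to those outside genes. Among the 4233 common regions, ranked by fold within each library, the median rank of the 971 was 2193 and 2707 in HSC and 2362 and 2739 in LSC. Of the 92 common regions that ranked in the top 423 in all 4 libraries, 9 were intragenic.

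**Figure D2:**
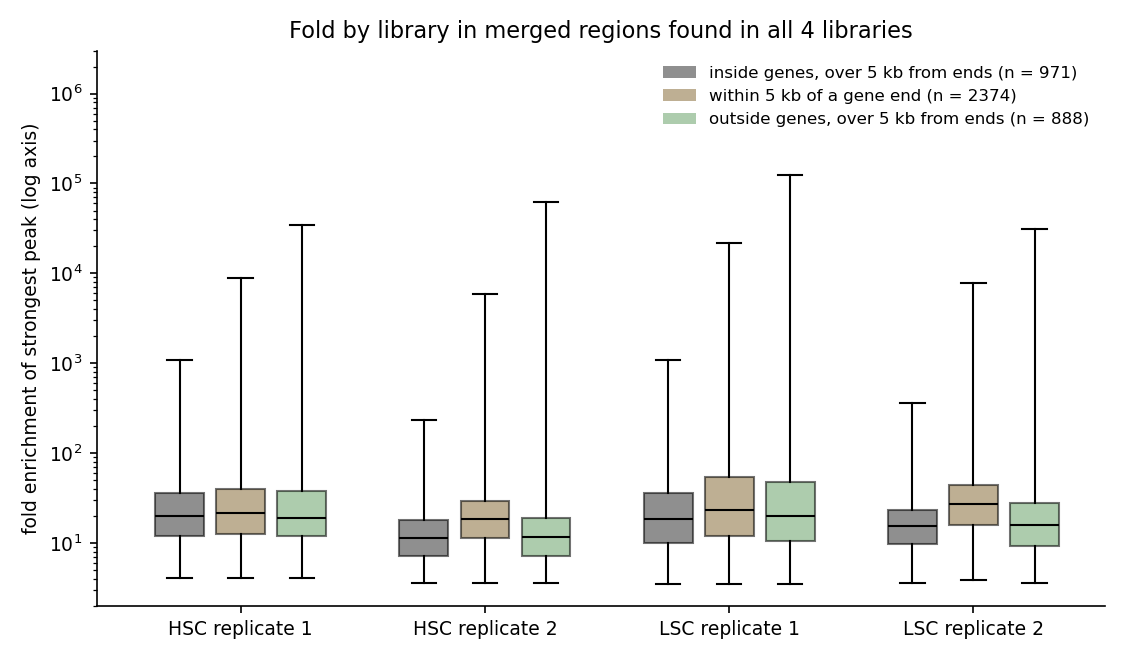
Fold enrichment of the strongest peak (log axis) in each of the 4 libraries for the 971 intragenic regions, the 2374 common regions within 5 kb of a gene end and the 888 outside genes; boxes show quartiles and median, whiskers the lowest and highest value. The intragenic medians are 19.7, 11.4, 18.3 and 15.2, below those near gene ends in each library.

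The strongest intragenic regions were named by their worst rank over the 4 libraries. The first was inside Smo, the signal transducer of the Hedgehog pathway, at chr6:29747648-29749568. Its fold was 1073 and 200.4 in HSC and 986 and 246 in LSC, its worst rank 31 of 4233, and 1481 bp were shared by all libraries. Values were high in every library, and those of replicate 1 exceeded those of replicate 2 in both groups.

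Myo3a, a myosin of sensory hair cells, held the next pair of regions. At chr2:22588664-22590197 the fold was 187 and 233 in HSC and 636 and 329 in LSC, and at chr2:22587265-22588329 it was 186 and 209 in HSC and 445 and 357 in LSC. The 4 summits lay within 4 bp of each other in the former and within 21 bp in the latter. Both regions had higher values in both LSC than in both HSC libraries. By rank among the common regions the groups overlapped in both. The ranks were 42 and 28 in HSC and 36 and 27 in LSC in the former. In the latter they were 43 and 30 in HSC and 41 and 26 in LSC.

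In Ppp1r9a, which encodes the actin-binding neurabin, the fold was 156 and 117 in HSC and 399 and 159 in LSC. Both LSC values were higher, but its ranks of 54 and 44 in HSC and 46 and 42 in LSC overlapped. In Cdk8, the kinase of the Mediator complex, the fold was 100.3 and 177 in HSC and 1093 and 122 in LSC, over 392 bp of sequence. The Cdk8 value of LSC replicate 1 stood far above the others, and the groups overlapped. Vps45, a vesicle fusion protein, had 176 and 87.4 in HSC and 213 and 81.1 in LSC.

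Pde4b, a cAMP phosphodiesterase, had 117 and 53.9 in HSC and 187 and 75 in LSC. Jarid2, an accessory subunit of Polycomb repressive complex 2, had 71.9 and 76.4 in HSC and 388 and 70.7 in LSC. The groups overlapped in both, and in Jarid2 LSC replicate 1 alone was high. The 12 strongest also included the Tef start and the Gm22068 region of Tex14, given above. Tmem267 had 71.6 and 43.2 in HSC and 154 and 55.5 in LSC, and Ywhaz, the zeta 14-3-3 adaptor, had 54.9 and 47.7 in HSC and 74.9 and 68.6 in LSC. All 12 had a shared base. No control library is named, and no list of sequence present in several copies was used. Whether such sequence lies under these highest values was not tested.

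**Figure D3:**
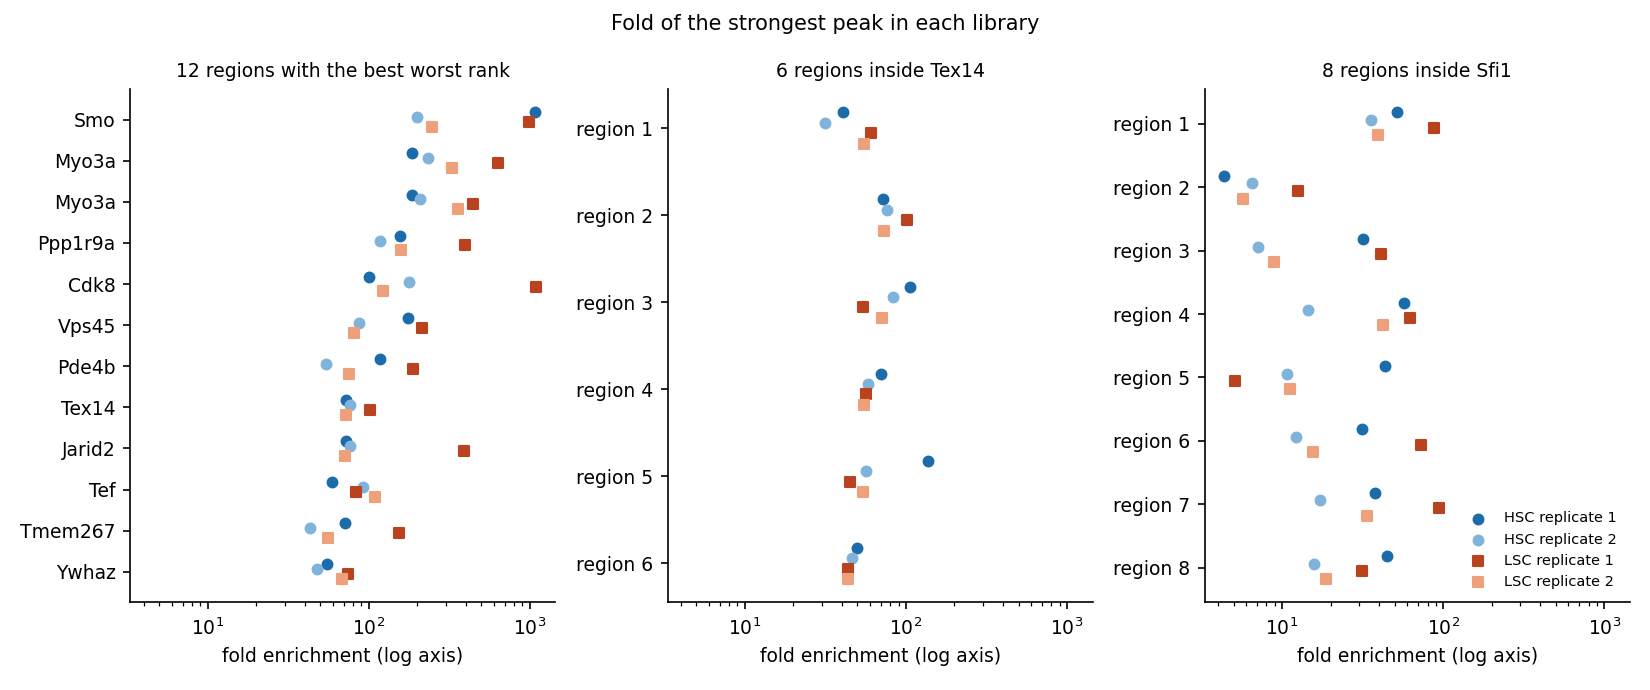
Fold of the strongest peak (log axis) in each library, circles for HSC and squares for LSC, for the 12 regions with the best worst rank, the 6 regions in Tex14 and the 8 regions in Sfi1 in order along the gene. Smo reaches 1073, the Tex14 regions lie between 31.6 and 137, and the Sfi1 regions range from 4.37 to 94.1.

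The weakest regions, by their best rank, were in Rasa3, Mylk, Plekhm3 and Tmem132b. In Rasa3, a GTPase-activating protein for Ras, the fold was 5.74 and 4.68 in HSC and 3.66 and 7.84 in LSC. In Mylk, myosin light chain kinase, it was 5.19 and 5.61 in HSC and 3.66 and 6.35 in LSC. Only the Tmem132b region of these 4 had a shared base, of 179 bp. The widest region lay in Mroh2a, with 10162 bp and 17 peaks but no shared base. In Kdm6b, an H3K27 demethylase, a region of 8 peaks had 20.5 and 47.4 in HSC and 75.4 and 74.1 in LSC, with both LSC values higher. Its ranks of 2117 and 295 in HSC and 531 and 250 in LSC overlapped.

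The regions lay in 822 host genes. With 13171 protein-coding genes that have sequence over 5 kb from any coding gene end, this was 6.24% of genes. A single region was held by 699 genes, 2 by 98, 3 by 18, 4 by 5, 6 by Tex14 and 8 by Sfi1. The 123 genes with several regions held 279 of the 971, and 12 regions lay in more than 1 overlapping host gene. Neighbouring regions within a gene formed 161 pairs with a median gap of 11.1 kb, and 75 gaps were at most 10 kb. With a shared base required, 406 genes held a region and 45 held several.

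Host genes were mostly long. Genes were divided into 5 equal classes by their length of sequence over 5 kb from gene ends. The share with a region was 0.797%, 3.38%, 4.90%, 7.48% and 14.7% from the shortest to the longest class. The number of regions per 10 Mb of that sequence went the other way over the longer classes, with 26.2, 31.9, 24.5, 17.7 and 8.12. Long genes thus held a region more often but at lower density.

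Density also fell with distance from gene ends. Of the merged regions 5 to 10 kb from the nearest coding gene end, 0.681% were found in all 4 libraries, which is 268 regions. The share was 0.457% at 10 to 20 kb, 0.430% at 20 to 50 kb, 0.305% at 50 to 100 kb and 0.151% beyond. The median distance was 19.9 kb, against 32.3 kb for all merged regions deep inside genes, and the farthest region, in the cAMP phosphodiesterase gene Pde4d, was 643.5 kb from an end. Along the 746 regions whose host strand was known, 5 equal stretches of the gene from start to end held 114, 189, 196, 151 and 96. The stretch next to the start held 15.3% of the regions and 15.7% of all merged regions deep inside genes, and the stretch next to the end 12.9% and 16.3%.

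The limit of 5 kb divided regions that lay close together in distance. Just inside were Pgs1 at 5017 bp, Sirt4 at 5034 bp and Ceacam18 at 5049 bp. Just outside, and left out, were Hpf1 at 4997 bp and Stim1 at 4982 bp. The fold at Pgs1 was 23.0 and 18.2 in HSC and 23.4 and 14.4 in LSC, and at Hpf1 35.3 and 11.4 in HSC and 15.4 and 12.3 in LSC.

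Sfi1, a centrin-binding protein of the centrosome, held 8 of its 23 merged regions. They lay between chr11:3140360-3144172 and chr11:3179579-3180313, and 6 of them had a shared base. The first of these, with 10 peaks and 1126 shared bp, had a fold of 51.9 and 35.7 in HSC and 88.2 and 39.2 in LSC. The last had 44.8 and 15.7 in HSC and 31.3 and 18.8 in LSC, and the weakest, at chr11:3150929-3151419, had 4.37 and 6.55 in HSC and 12.6 and 5.72 in LSC. No list of sequence present in several copies was used here, and whether Sfi1 has such sequence was not tested.

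Cdk6, a cyclin-dependent kinase of the G1 phase, held 4 regions along its gene, none of which had a shared base. At chr5:3490046-3492783 the fold was 14.5 and 12.9 in HSC and 102 and 21.2 in LSC. At chr5:3501251-3503689 it was 12 and 15.5 in HSC and 27.5 and 35.8 in LSC. At chr5:3366962-3368485 it was 9.84 and 8.98 in HSC and 26.7 and 10.8 in LSC, so both LSC values exceeded both HSC values in these 3. By rank the groups overlapped in the last of these, with 3537 and 3213 in HSC and 1750 and 3284 in LSC. The fourth, at chr5:3426546-3427512, had 20.2 and 3.93 in HSC and 5.12 and 14.0 in LSC, and the groups overlapped. As these folds are each relative to the background of their own library, no difference between the groups is read from them.

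Maml3, a coactivator of Notch, Plec, the cytoskeletal linker plectin, and Tbc1d2b, a Rab GTPase-activating protein, also held 4 regions each, of which 2, 2 and 3 had a shared base. Sp140, a nuclear body protein of immune cells, held 4 regions, all with a shared base, and 3 of them lay in the overlapping gene Sp110 as well. The Sp140 start region, chr1:85600206-85601462, had 27.3 and 48.8 in HSC and 35.1 and 30.7 in LSC. Adap1, an Arf GTPase-activating protein, held 3 regions, of which 1 had a shared base. Its fold at that region was 6.56 and 31.8 in HSC and 28.0 and 25 in LSC.

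Host genes were then counted in 14 gene lists. The lists share genes, among the hosts Zfpm1, Vwf, Etv6, Meis1 and Runx2, so their counts are not independent. The share of genes with a region is set beside that over all genes (6.24%, or 3.08% with a shared base) and over genes of the same length classes. With a shared base no share by length class was computed, so those shares are not matched for gene length. Of the genes of MLL fusion targets and the DOT1L and menin complexes, 8 of 28 held a region (28.6%), against 11.2% of all genes in their length classes, and they held 17 regions. They were Arid3a, Cdk6, Mef2c, Mbnl1, Aff1, Runx2, Meis1 and Etv6. With a shared base only Mef2c and Etv6 remained, 7.14% of the list. At the Mef2c region with a shared base, in the gene of a MADS-box factor, chr13:83571917-83573525, the fold was 92.4 and 10.7 in HSC and 21.6 and 36.4 in LSC. In Arid3a, a DNA-binding protein with an ARID domain, the strongest of 3 chains had 29.5 and 23.6 in HSC and 20.1 and 17.8 in LSC.

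Stem cell factors and surface genes had 6 of 24 (25%, against 9.52% for their length classes). They were Fli1, Erg with 3 regions, Vwf, Zfpm1, Etv6 and Meis1, of which Fli1, Erg and Etv6 had a shared base. At Fli1, an ETS factor, chr9:32507354-32510752, the fold was 27.1 and 28.8 in HSC and 86.7 and 46.8 in LSC, with both LSC values higher. At the Erg region with a shared base, chr16:95463710-95465251, it was 36.9 and 12.5 in HSC and 57.5 and 12.7 in LSC. Both genes encode ETS factors needed for blood stem cells, and the highest value at each was in LSC replicate 1.

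The myeloid list had 3 of 21 (14.3%, against 4.20%), Runx2 and Runx3 among them, none with a shared base. At Runx3, a Runt domain transcription factor, the fold was 12 and 13.8 in HSC and 5.31 and 20.1 in LSC, and the groups overlapped. Among markers of other cell types the hosts were 0 of 12 B lineage genes (against 7.86%) and 0 of 14 T and NK lineage genes (against 6.37%), counts near the background. Erythroid and megakaryocyte genes had 2 of 14 (Rap1gap2 and Zfpm1; 14.3%, against 6.41%), and stroma and endothelium genes 3 of 16 (Lepr, Vwf and Emcn; 18.8%, against 8.43%). At Rap1gap2, chr11:74571061-74573342, the fold was 36.9 and 17.2 in HSC and 36.4 and 46.8 in LSC, with summits within 77 bp. At Lepr, the leptin receptor, it was 37.7 and 20.4 in HSC and 8.97 and 20.5 in LSC.

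Genes of the complexes that contain Ruvbl2 had 3 of 23 (13.0%, against 6.11%). The hosts were Ing3 and Trrap of TIP60/p400 and Actr5 of INO80, and none of the 3 had a shared base. At Actr5 the fold was 18 and 13.1 in HSC and 8.60 and 8.26 in LSC, at Ing3 38.8 and 19.5 in HSC and 5.31 and 15.9 in LSC, and at Trrap 13.4 and 5.80 in HSC and 29.8 and 6.35 in LSC. Both HSC values were higher at Actr5 and Ing3, and the groups overlapped at Trrap. SWI/SNF, CHD and ISWI remodellers had 8 of 37 (21.6%, against 8.51%). A shared base was present in 5 of them, Chd7, Arid1b, Arid1a, Smarcc2 and Bicra, which is 13.5%. At Chd7 the fold was 47.0 and 13.1 in HSC and 41.5 and 21.4 in LSC, and at Arid1b 25.4 and 12.7 in HSC and 18.9 and 37.5 in LSC.

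The series' subject is nucleoporin 214 and ferroptosis. Among ferroptosis genes 5 of 30 held a region (16.7%, against 5.22%), and 4 of them with a shared base (13.3%). Txnrd1, at chr10:82858612-82860679 over 2 annotated starts, had a fold of 42.6 and 15.2 in HSC and 63.7 and 24.1 in LSC. Por, the cytochrome P450 reductase, had 39.9 and 13.8 in HSC and 15.7 and 56.1 in LSC. Slc3a2, the heavy chain of the cystine transporter, had 22.7 and 32.2 in HSC and 8.97 and 24.8 in LSC. Values of Txnrd1 were higher in replicate 1 of both groups, and those of Por and Slc3a2 overlapped between the groups.

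Gsr, glutathione reductase, held 3 regions. At chr8:33663454-33665195, with 405 shared bp, the fold was 59.6 and 36.9 in HSC and 80.9 and 9.11 in LSC. Nfe2l2, the transcription factor of the oxidative stress response, had 21 and 10.9 in HSC and 14.6 and 31.6 in LSC, without a shared base. Of 20 iron handling genes none held a region (against 4.81%), and of 32 nucleoporin genes 1 did (3.12%, against 5.89%), counts near the background. The nucleoporin was Nup107 of the Y complex, with 41.0 and 15.7 in HSC and 121 and 16.3 in LSC. Of 2 immediate early genes long enough to be counted, 0 held one (against 2.09%).

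Long neuronal, adhesion and fragile-site genes had 13 of 43 (30.2%, against 14.7% for their class), 8 of them with a shared base. Their length class does not match them closely. The 43 genes held 55.9 Mb of sequence over 5 kb from gene ends, and all 2634 genes of the class 588.5 Mb. The share of 30.2% is thus not set beside genes of equal length. Of their merged regions 0.12% were found in all 4 libraries, below the 0.285% of the class and the 0.396% over all genes. At Ntm, an adhesion molecule of neurons, chr9:29483304-29485389, the fold was 98.9 and 22.3 in HSC and 99.2 and 33.5 in LSC. Sox5, a transcription factor of neural and cartilage cells, had 33.1 and 24.1 in HSC and 32.6 and 22.4 in LSC at chr6:144666727-144670953, with 1411 shared bp. Genes of this list are best known from neurons and other tissues rather than blood.

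**Figure D4:**
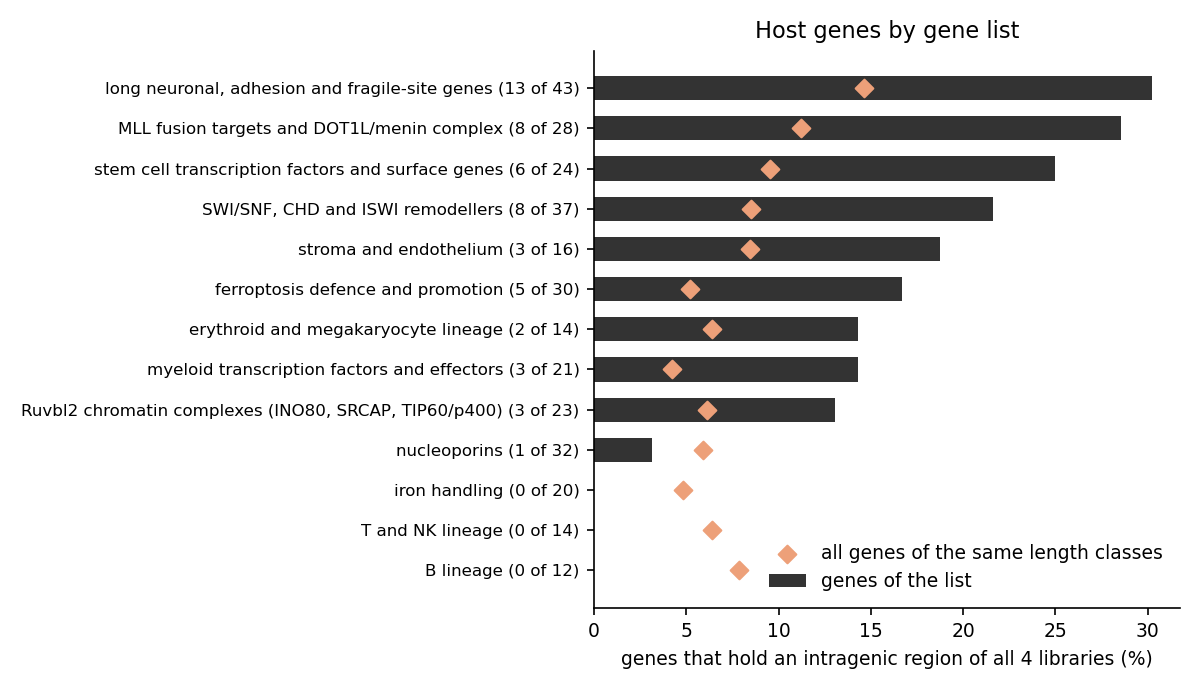
Bars, percent of the genes of each list that hold an intragenic region of all 4 libraries, with hosts of genes counted in brackets; diamonds, the same percent over all genes of the same length classes. Lists with at least 10 genes are drawn; MLL fusion targets stand at 28.6% against 11.2%, and B, T and NK lineage and iron handling lists at 0.

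The order of the regions within the libraries was compared between the groups, without a test, since with 2 libraries a group the smallest exact two-sided permutation p is 0.33. Both LSC ranks were better than both HSC ranks in 116 regions (11.9%), against 14.6% of all 4233 common regions. Both HSC ranks were better in 160 regions (16.5%), against 15.1%. Both shares were near those of all common regions. At replicate 1 the LSC rank was better in 458 regions (47.2%, against 49.3% of all common regions) and at replicate 2 in 483 (49.7%, against 49.8%). Spearman's rho of fold over the 971 regions was 0.36 between the HSC libraries and 0.28 between the LSC libraries. It was 0.49 between HSC replicate 2 and LSC replicate 2, the highest of the 6 pairs, and 0.28 between HSC replicate 1 and LSC replicate 1. These are descriptions over regions, which share their libraries. The most alike pair thus shared its replicate number and not its group.

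Finally, the count was repeated after the peak lists were moved along their chromosomes relative to each other, by 0, 1, 2 and 3 steps for the 4 libraries. Over 20 steps from 100 to 2000 kb, the rule found 135 to 272 intragenic regions, with a median of 155. The 971 found in place were 6.26 times that median. Regions with a shared base numbered 13 to 34 after the shifts, with a median of 22, and the 457 found in place were 20.8 times that. Genes with several regions numbered 3 to 12, against 123. A step of 10 kb gave 345 regions. Most regions found after a shift were thus chains without a shared base.

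**Figure D5:**
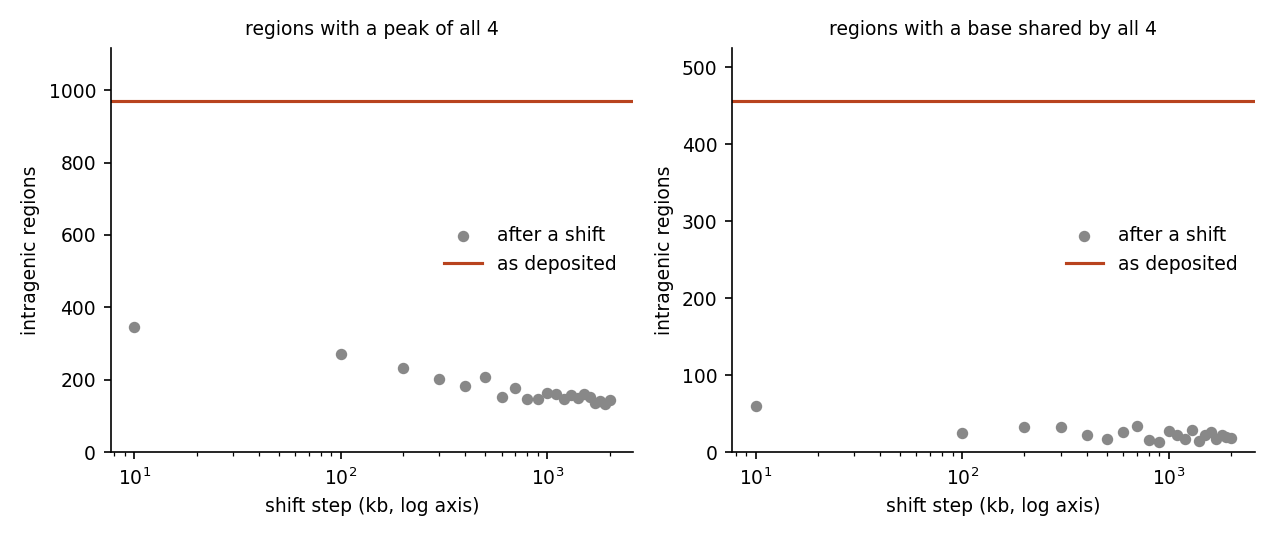
Number of intragenic regions with a peak of all 4 libraries (left) and with a base shared by all 4 (right), against the shift step in kb (log axis); points are shifted lists, lines the lists as deposited. The lines stand at 971 and 457, and steps of 100 kb and more give at most 272 and 34.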

How the data were processed

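Peak lists of 4 Ruvbl2 CUT&Tag libraries were analysed as deposited, 1 list per library. Per the submitters' processing notes, the tools were FastQC 0.11.5, Bowtie2 2.2.9, MACS2 and ChIPseeker, on build mm10. For MACS2 and ChIPseeker the version is not given in the sources used here, nor are the threshold and the treatment of duplicate or multiply matching reads. Every library had its own call. The deposited score, the fold (a ratio of summit pileup to background), the −log10 p and −log10 q values and the summit offset are the authors' own values of each peak. Lists held 161655, 286107, 216077 and 210541 peaks, of which 153914, 272787, 206291 and 200608 were on chromosomes 1 to 19. The total of reads is unknown.

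Peaks were merged at 1 bp overlap and placed on a RefSeq table of GRCm38.p6, which holds 20661 protein-coding genes on these chromosomes. The highest fold of a library in a region was used, and ranks were taken among the 4233 common regions. The start and miRNA sequences came from RefSeq, chromosome 18 was not used for them, and gene strand came from the starts. The start list also lacked some genes of other chromosomes. Python 3.11.15, numpy 2.4.6, pandas 2.3.3 and matplotlib 3.10.9 were used, and the merging and placing were tested on simulated peaks.

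No test was run, because presence in the lists chose the regions and 2 libraries a group are too few. The regions and gene lists were chosen with earlier results of these data known. Named were the 12 regions with the best worst rank, the 8 genes with most regions, up to 3 genes per list by worst rank, the 3 regions on each side of the 5 kb limit, the 4 weakest and the 5 widest. Predicted genes were passed over where they were the only host, and a few regions that this rule names are not reported here. Start regions, small RNA genes and further list genes were named after their values were seen. The shared base was a requirement chosen after seeing the data. A synonym matched 1 nucleoporin. The alternatives were stricter overlaps, other distances, all gene types as ends, stronger peaks and leaving out a library.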

Additional observations from a re-analysis of the deposited data

Results flagged for a closer look

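Chromosome X was outside the rule, which used chromosomes 1 to 19. In these data, which the comparisons did not use, the same rule found 4 regions with a peak of all 4 libraries. They were 0.0602% of 6646 merged regions deep inside genes of that chromosome, below the 0.396% on chromosomes 1 to 19. No shifted lists were counted on chromosome X, so whether the 4 exceed such a count was not tested. At Cybb, the catalytic subunit of the phagocyte NADPH oxidase, the fold was 18.3 and 6.55 in HSC and 11 and 15.9 in LSC. The others were in Plxnb3, Awat2 and Nhsl2, with the fold between 4.87 and 35.0.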

How the results depend on the processing

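The counts rest on what is taken as shared. The 971 regions, 822 host genes and 123 genes with several regions became 457, 406 and 45 with 1 base shared by all 4 libraries (chosen after seeing the data). They became 39, 39 and 0 with 50% of a peak in the shared segment, and 50, 50 and 1 with the strongest summits within 200 bp. With the 100000 strongest peaks of each library they were 394, 353 and 36, and with the 20000 strongest 111, 103 and 6. Leaving out 1 library, so that fewer were required, gave 1520 to 2997 regions, 1275 to 2157 genes and 206 to 560 genes with several, lowest without HSC replicate 2 and highest without HSC replicate 1; 794 to 903 of the 971 regions were overlapped. These 3 counts stayed within 1.5 times with limits of 10 kb or 2 kb, with ends of genes of every type and with −log10 q of at least 10.

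Median folds, in the order HSC 1, HSC 2, LSC 1 and LSC 2, were 56.6, 18.2, 53.8 and 23.1 with 50% of a peak shared, 31.4, 22.1, 36.3 and 30.6 with summits within 200 bp, and 46.7, 25.5, 67.3 and 37.9 with the 20000 strongest peaks. With the 100000 strongest they were 30.7, 16.1, 30.7 and 21.2, and with a shared base 27.3, 14.6, 25.3 and 19.1. A median counted as moved when it changed by more than the standard deviation between the medians of its group, 5.84 in HSC and 2.16 in LSC. By this wider HSC limit, HSC 2 did not count as moved in either setting. Without 1 library the medians were 15.6 to 16.1 in HSC 1 and 8.80 to 8.98 in HSC 2. They were 13.9 to 15.2 in LSC 1 and 11.9 to 12.3 in LSC 2, and only the LSC medians counted as moved.

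Counts of single genes moved more. Tex14 went from 6 to 0 with ends of genes of every type, which its small nuclear RNA genes are, to 0 with summits within 200 bp and to 1 with 50% of a peak shared. Under these stricter overlaps Sfi1 went from 8 to 1 and 0, and Sp140 and Tbc1d2b from 4 to 0. At 10 kb Sp140 and Arid3a went to 1, and with −log10 q of at least 10 Maml3 went to 2. With a shared base Cdk6, Arid3a and Aff1 fell to 0, and Tex14, Sfi1, Sp140 and Tbc1d2b kept 6, 6, 4 and 3. In the weakest region of each library the strongest peak held 15 to 19 fragments, taking a fold step as 1 fragment. Whether depth limits such regions was not tested.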
